A study of Mus musculus with 10 samples.

Results

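A splicing array profiled 10 mouse tissues. By a fixed rule on probe signals, 70 alternative exons were called more skipped in testis than in the median of the other 9 tissues. They were drawn from 1041 events whose flanking exons were bright enough to be compared, of 3126 events on the array. Each event has 3 exon-body probes, in the flanking exon C1, the alternative exon A and the other flanking exon C2. Another 3 probes cross splice junctions: transcripts that keep the exon carry C1:A and A:C2, and transcripts that skip it carry C1:C2. A seventh probe is marked INT, and what it measures is not given in the sources used here. Testis was set against brain, spleen, heart, muscle, intestine, liver, kidney, lung and salivary, the names the labels use. Every tissue was 1 sample of total RNA pooled from mice of the outbred CD1 strain, with no treatment named. How many animals were pooled, and their age and sex, is not given in the sources used here. With 1 sample per tissue there is no replicate error, so no test between tissues was run and every value describes these 10 arrays.

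A cassette exon is joined to both neighbours when it is kept in the messenger RNA, and is left out when its neighbours are joined directly. A shift toward skipping can therefore appear as more of the C1:C2 junction, as less of C1:A, A:C2 and the exon body, or as both. Testis holds germ cells at successive stages of sperm formation beside somatic Sertoli and Leydig cells, and it is known for a wide range of transcripts and of splice forms not seen in other organs. Bulk RNA of the whole organ averages over these cells, so fewer cells of a type and less RNA per cell cannot be told apart. The table pairs no gene names with its event numbers and no probe sequences were among the sources used here, so the exons are given by event number, with no gene role, and the tissues were not checked against marker genes.

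The lowest deposited value was 0 and the highest 8.66, on a compressed scale with no stated base, and differences are given in array units, not as folds. All values below are after the arrays were brought to a common median of 2.12, from deposited medians of 2.04 to 2.19. A probe listed at 0 can therefore read slightly below 0. The share of probes at exactly 0 was 1.38% in testis and ran from 0.635% to 3.33% over the 10 arrays. The INT probes had a median of 1.21 and a 95th percentile of 3.14 over all arrays, and both serve below as marks of low signal. They are not known to be a background level.

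The rule compared 2 indices. For the junction index, C1:C2 was subtracted from the average of the inclusion junctions C1:A and A:C2. For the body index, the average of both flanks was subtracted from A. A member had a junction index in testis at least 0.8 units below the median of the other 9 tissues and a body index at least 0.4 below. Its C1 and C2 probes read 2.1 or more in testis and in at least 8 of the 10 tissues. By the junction index alone 98 events, 9.41% of the 1041, lay that low, and 28 of these did not meet the body threshold, of which 10 had a body index above the median of the other tissues. The members were 6.72% of the events compared. Turned on the other tissues, the same rule took 5.71% of events in liver, 5.02% in kidney, 4.70% in heart, 4.11% in brain and 3.22% in intestine, and 2.43% in spleen, 2.33% in muscle, 2.26% in lung and 2.15% in salivary. These values chose the members and support nothing further. When the arrays were brought to 1 distribution by quantile normalization, the rule took 44 events, 41 of them among the 70.

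The difference between testis and the median of the other 9 tissues is called the deviation. At the threshold the members blended into the rest. Nearest inside were Ben1368, Ben1716 and Ben4214, with junction index deviations of -0.81, -0.81 and -0.82. Nearest outside were Ben4224, Ben3881 and Ben3673, at -0.79, -0.77 and -0.75. Among the members the junction index deviation ran from -3.56 to -0.81 with a median of -1.31, and the body index deviation from -3.85 to -0.40 with a median of -1.06. Flanks were above the minimum in all 10 tissues for 36 members, in 9 tissues for 19 and in 8 for 15.

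What set most of these exons apart in testis was a brighter skipping junction, often on a brighter transcript, whereas the probes of the exon itself went either way. The C1:C2 deviation had a median of 1.33 over the 70 members, against 0.10 over all 1041 events. The flanking exons moved with it, at 0.88 for C1 and 1.03 for C2, against 0.11 and 0.25 over all events. For the exon body the median was -0.16 and for the mean inclusion junction -0.19, against 0.19 and 0.19 over all events. C1:C2 was higher by 0.5 units or more in 57 members, a difference seen in 32.3% of all events. The mean inclusion junction was lower by that much in 21 members (16.5% of all events) and higher in 14 (35.3%). A was lower in 28 members (17.0% of all events) and higher in 8 (37.2%). All of these probes entered the rule, so the counts say which probes carried the choice and are no test. Under quantile normalization the median C1:C2 deviation of the same members was 0.69, with -0.04 over all events.

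**Figure D1:**
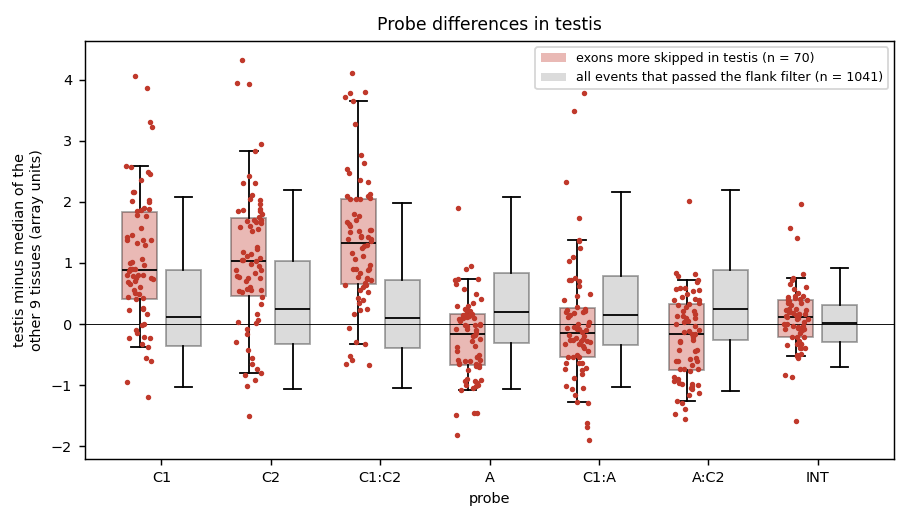
Deviation of each probe in testis from the median of the other 9 tissues, in array units, for the 70 exons more skipped in testis (red boxes and points, left of each pair) and for all 1041 events that passed the flank filter (grey boxes). Boxes span the quartiles with the median as a line, and whiskers run to the 5th and 95th percentiles over events. C1, C2 and C1:C2 of the members lie above those of all events, with medians of 0.88, 1.03 and 1.33, whereas A, C1:A and A:C2 have medians from -0.16 to -0.15.

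By which junctions moved, the members fell into 4 classes at a step of 0.5 units. Inclusion was read in each class as the mean inclusion junction. In 47 members the skipping junction was higher and the mean inclusion junction was not lower. The mean inclusion junction was within the step in 33 of these 47 and higher in the other 14. Taken singly, C1:A was lower by 0.5 units or more in 3 of the 47, A:C2 in 7 and A in 11. In 10 the skipping junction was higher and the mean inclusion junction was lower, a switch between both forms. In 11 the inclusion junctions were lower and C1:C2 was not higher, and in 2, Ben2646 and Ben1978, neither step was reached. Over all 1041 events the corresponding shares were 30.9%, 1.34%, 15.2% and 52.5%. The size of the step mattered for the switches, which numbered 20 at 0.3 units and 1 at 1 unit.

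**Figure D2:**
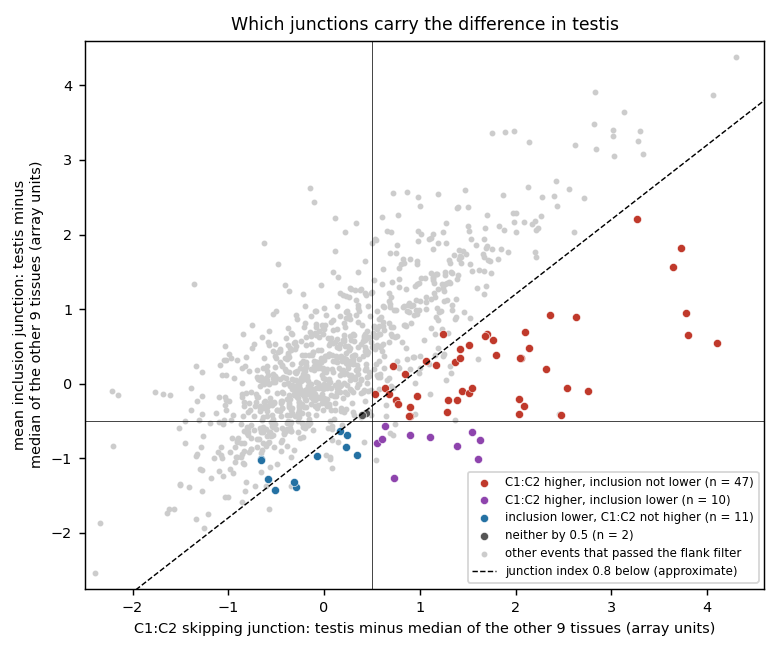
Deviation in testis of the mean inclusion junction (vertical axis) against that of the C1:C2 skipping junction (horizontal axis), both in array units, 1 point per event. Coloured points are the 70 members by class and grey points the remaining events that passed the flank filter. Thin lines mark the class steps, and the dashed line marks an index 0.8 below; it is approximate because the index uses the median of differences. C1:C2 is higher by 0.5 or more in 57 members. Of these the mean inclusion junction is within 0.5 of 0 in 33, higher in 14 and lower in 10.

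In the largest class, with C1:C2 higher and the mean inclusion junction not lower, transcript level was often higher as well. Level was taken as the mean of C1 and C2. In these 47 members the median deviation was 1.47 for level, 1.54 for C1:C2 and 0.23 for the mean inclusion junction. The skipping junction thus rose about as much as the transcript. That the mean inclusion junction rose less than C1:C2 is what the rule asked for. Level was higher by 1 unit or more in 33 of these 47 members, and in 34 of all 70 members, against 23.2% of all events. It was lower by 1 unit or more in 1 of the 70, against 4.51% of all events. Both flanks enter the body index, so a brighter transcript with an unmoved A probe lowers that index by construction. The junction index is not free of level either. C1:C2 and level deviations correlated at Pearson's r = 0.77 over the members and 0.78 over all events. Where dim inclusion junctions do not follow, a higher C1:C2 lowers that index too. Under quantile normalization 17 of the 70 members had a level higher by 1 unit or more. In 26 members (37.1%) C1, C2 and C1:C2 were all higher in testis than in any other tissue, against 14.7% of all events.

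Ben2880 had the lowest junction index deviation of all. Its C1:C2 junction read 7.06 in testis, against 2.27, 2.95 and 3.77 (lowest, median and highest) in the other 9 tissues. C1 read 7.18 in testis and between 2.39 and 4.08 elsewhere, and C2 read 6.99 in testis and between 2.60 and 3.85 elsewhere. The exon body stayed low, at 0.816 in testis against 0.469 to 1.37 in the others. Testis was thus far above every other tissue for C1:C2 and within their range for the exon. The inclusion junctions were also within that range, at 1.50 on average in testis, against 0.568 to 1.57 elsewhere. C1:C2 stayed close to level, at 7.06 and 7.08 in testis, 3.77 and 3.97 in brain and 3.26 and 3.28 in spleen. A was below the INT median of 1.21 in every tissue except heart. Whether the share of transcripts that skip the exon differed in testis was not tested.

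Ben3759 likewise had a far brighter C1:C2 in testis, with A within the range of the others. Its transcript level was also far higher in testis, at 6.64 against 2.27 to 3.03. Among the other tissues its index hardly varied. C1:C2 read 5.31 in testis, against 1.28, 1.51 and 2.17 in the others, while A read 1.28 in testis, against 0.158, 0.549 and 1.63. Its junction index was -3.59 in testis and lay between -0.67 and -0.31 in the other 9 tissues, a range of 0.365, the narrowest of any member. In Ben3007 the same junction read 6.34 in testis, against 1.50, 2.56 and 4.50, with intestine the highest of the others. Its A probe was also somewhat brighter in testis, at 3.67 against 2.39 to 3.33, so the exon was not lower there in absolute signal.

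Ben1713 and Ben84 were also among the 5 members of this class with the lowest index deviation. In both, the index was lower in testis than in any other tissue. For Ben1713, C1:C2 read 4.70 in testis, against 1.64, 2.23 and 3.97, and the A:C2 junction read 1.59 in testis, against 1.42, 2.49 and 2.93. In Ben84 the C1:C2 junction read 4.80 in testis, against 0.977, 2.04 and 3.76. Muscle was the other extreme for Ben84, with an inclusion junction mean of 1.18 in testis against 4.67 in muscle and an index of -3.62 in testis against 0.90 in muscle. Both exons therefore also differed among the tissues other than testis.

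The inclusion junctions of these members read low more often than those of all events. In the median of the other tissues the mean inclusion junction read below the INT median in 15 members (21.4%), against 9.70% of all events, and testis was lower by 0.5 units or more in 1 of these 15. It exceeded the INT 95th percentile in 6 members (8.57%), against 30.0% of all events. In testis it was lower by 0.5 or more in 3 of these 6. Over all events, whatever their signal, it was lower by that much in 16.5%. That share was not taken by signal, so nothing further is read from either count. An A, C1:A or A:C2 probe was listed at 0 in at least 1 tissue for 15 members. Sizes that rest on such values are not exact.

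A switch, with more of the skipping junction and less of both inclusion junctions on average, was seen in 10 members. Level was higher by 1 unit or more in 1 of them, Ben3898. There C1:C2 read 5.18 in testis, against 1.70, 3.57 and 4.72 in the other 9 tissues, and the mean inclusion junction read 1.17 in testis, against 1.25, 2.18 and 4.28. Testis lay outside the range of the others on both junction measures. Heart and muscle stood at the inclusion end, at 4.28 and 4.17.

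Ben3626 combined a brighter C1:C2, at 3.82 in testis against 1.92, 2.43 and 4.59 in the others, with a dimmer exon, whose A probe read 1.97 in testis against 1.64, 3.05 and 4.74. The groups overlapped on each probe alone. The index separated them, at -1.66 in testis against -0.56, 0.33 and 0.75. For Ben2319 C1:C2 read 2.61 in testis, against 0.551, 1.06 and 3.58, with heart above testis, and the index was -0.52 in testis, against 0.40, 1.62 and 2.02.

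Ben2925 and Ben3001 showed the same arrangement at lower inclusion signal. In Ben2925 C1:C2 read 4.01 in testis, against 1.83, 2.38 and 3.44, and the mean inclusion junction 0.748, against 0.874, 1.50 and 3.02. In Ben3001 C1:C2 read 5.20 in testis, against 3.63, 4.10 and 5.08, and the mean inclusion junction 1.49, against 1.66, 2.21 and 4.06, with brain the highest. Testis was outside the range of the other tissues on both measures in both exons. That held for 4 members in all, the other being Ben801 of the largest class, and for 0.384% of all events.

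Ben95, named after its values were seen, was the switch with the brightest probes. All 3 probes of its exon were lower in testis than in any other tissue: A read 2.37 in testis against 2.74, 3.86 and 5.12. C1:A read 2.50 in testis against 2.76, 3.79 and 4.97, and A:C2 read 2.05 against 2.21, 3.22 and 4.23. The skipping junction was within the range of the others, at 3.58 in testis against 2.07, 2.84 and 4.36. Level deviated by only 0.33. It was 1 of 8 members in which both kinds of junction exceeded the INT 95th percentile in testis or the median of the others. Of these 8 it was the only one with a mean inclusion junction lower by 0.5 units or more. The remaining 7 were all in the largest class, and in 6 of them the mean inclusion junction was higher by 0.5 units or more. A junction could reach that mark through testis alone, which favours higher values in testis. Nothing is therefore read from these counts.

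**Figure D3:**
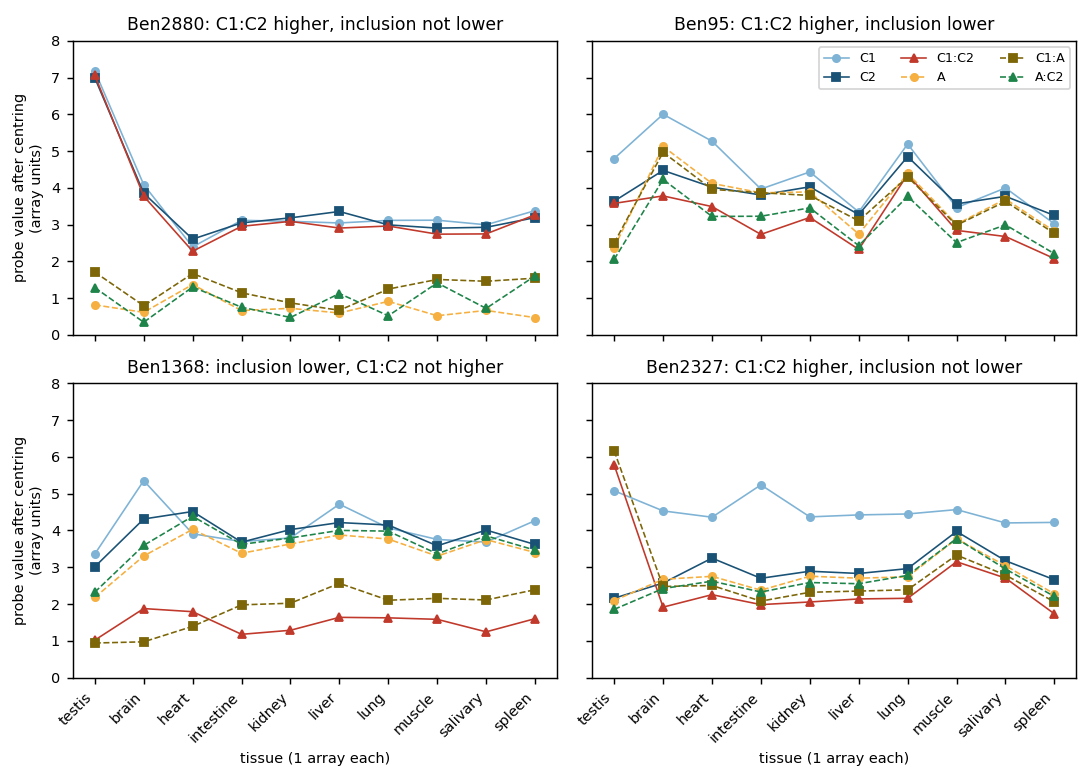
Values of the 6 exon and junction probes in each tissue (horizontal axis, testis at the left), in array units after centring, for 4 members. In Ben2880 the flanks and C1:C2 stand near 7 in testis while A, C1:A and A:C2 stay below 2 in every tissue. Testis is the lowest tissue for A, C1:A and A:C2 in Ben95 and in Ben1368, and in Ben2327 both junction probes that contain C1 are high in testis.

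In 11 members the inclusion junctions were lower while C1:C2 was not higher by 0.5 units. A, C1:A and A:C2 were each lower by 0.5 or more in all 11, and the median deviation of A was -0.96. Over the 70 members these 3 probes were lower together in 14, against 8.07% of all events. The choice of class fixes the direction of the junctions but not that of A, although A entered the rule through the body index. Level deviated by a median of -0.46 in this class, and in none of the 11 was it higher by 1 unit or more. Under quantile normalization 17 of the 70 members had this pattern.

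In Ben2865 the mean inclusion junction read 2.04 in testis, against 1.53, 3.37 and 5.83 in the other 9 tissues, and A read 2.59, against 1.97, 3.55 and 6.55. Brain was lower than testis and liver the highest on both. C1:C2 read 0.918 in testis, below the INT median, against 0.581, 1.24 and 2.75. For Ben2193 the A:C2 junction read 0.863 in testis, against 1.24, 2.25 and 4.62. The index of Ben2193 was -0.35 in testis, against -1.44, 1.10 and 1.67, with brain the lowest.

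Ben319 was lower in testis than in any other tissue on all 3 exon-body probes and both inclusion junctions. A read 0.60 in testis, against 1.51, 2.41 and 4.33, and C1 read 2.90, against 3.11, 4.09 and 4.91. Its level deviated by -1.33, the only member lower by 1 unit or more. Its index varied over the other 9 tissues by 4.79 units, the widest range of any member, and was -1.23 in testis against -2.95 in spleen. For Ben291 A read 1.89 in testis, against 1.58, 3.35 and 4.31, and for Ben20 it read 2.35, against 1.86, 2.99 and 4.06, so both overlapped with the others.

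Ben1368, just inside the threshold, was separated on the exon probes and not on the index. A read 2.18 in testis, against 3.30, 3.63 and 4.03, and A:C2 read 2.32, against 3.37, 3.80 and 4.38. C1 and C2 were also lower in testis than in any other tissue, at 3.36 against 3.68 to 5.35 and at 3.01 against 3.58 to 4.52. The junction index was 0.61 in testis and 0.41 in brain.

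The inclusion junctions of an event did not always move together. Their deviations lay at least 1 unit apart in 6 members, and in all 6 C1:A was the higher of the pair. Such gaps were not more common than elsewhere, at 8.57% of members against 9.70% of all events. In Ben2327 C1:A read 6.16 in testis, against 2.06, 2.39 and 3.33 in the others, and C1:C2 read 5.78, against 1.73, 2.14 and 3.15. Its A:C2 junction, A and C2 were all lower in testis than in any other tissue, at 1.85, 2.09 and 2.16 in testis against lowest values of 2.21, 2.28 and 2.57 elsewhere. The C1 body probe read 5.08 in testis, against 4.20, 4.42 and 5.24.

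Ben1049 shared the high C1:A and C1:C2 but not the low A:C2 and C2. C1:A read 7.0 in testis, against 2.38, 3.51 and 4.50, and C1:C2 read 6.56, against 2.57, 2.84 and 3.47. Its C1 probe was within the range of the others, at 2.53 against 2.41, 2.90 and 3.21, as were A:C2, at 3.39 against 2.63, 3.22 and 4.01, and C2, at 2.21 against 1.96, 2.19 and 2.42. A read 2.45 in testis, just below the lowest other value of 2.50. In Ben811 C1:A read 6.12 in testis and C1:C2 5.92, each above all other tissues, whereas A:C2 read 2.90, just below the lowest other value of 2.92. In these 3 events an inclusion junction was higher together with the skipping junction. C1:A deviated by 3.78 in Ben2327, 3.49 in Ben1049 and 1.73 in Ben811, and C1:C2 by 3.64, 3.72 and 1.70. The lower index thus rests mainly on A:C2, which did not follow C1:C2, and not on C1:A. These 3 events were named after their values were seen. With inclusion read from A:C2 alone the rule took 71 events, 65 of them among the 70, and with C1:A alone it took 69, of which 62 were among the 70.

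The C1 and C2 deviations correlated at Pearson's r = 0.91 (Spearman's rho 0.88) over the 70 members, and at 0.78 (0.77) over all 1041 events. Between C1:C2 and level r was 0.77 (rho 0.79) in members and 0.78 (0.74) over all events. C1:A and A:C2 correlated at 0.51 (0.66) in members and 0.77 (0.75) over all events. A and the mean inclusion junction correlated at 0.65 (0.65) in members and 0.83 (0.82) over all events. These are descriptions across exons that share the same 10 arrays, exons are not independent replicates, and the choice of members narrows the range of some measures.

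Testis had the lowest junction index of the 10 tissues in 44 of the 70 members, against 10.3% of all events, and the lowest body index in 41, against 13.8%. C1:C2 was highest in testis in 38 members (54.3%), against 20.9% of all events. A was lowest in 16 (22.9%), against 11.1%, and the mean inclusion junction in 12 (17.1%), against 10.9%. The rule asked for both indices to be low in testis, and all of these probes enter them, so nothing is read from these counts. In the 26 members where testis did not have the lowest junction index, 1 to 3 tissues lay below it. The lowest tissue was liver in 7 of the 26, brain in 6, spleen in 4, kidney in 3, salivary in 3, heart in 2 and intestine in 1, and lung and muscle were the lowest in none.

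The index of the members varied among the tissues other than testis. Its range over those 9 tissues had a median of 1.87 units in members, against 1.22 over all events. After Ben319, the widest ranges were those of Ben2351, at 3.97, and Ben3193, at 3.77. In Ben2351 the index was -2.80 in testis, against -2.66 in kidney and 1.31 in muscle. In Ben3193 it was -2.11 in testis, against -3.16 in brain, the lowest tissue, and 0.60 in intestine, the highest.

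Each tissue was also set against the median of the remaining tissues with testis left out. These comparisons share most of their samples with each other and with that of testis, so the values are given side by side and no overlap is drawn from them. The median index deviation of the members was -0.29 in liver and -0.25 in kidney, where that of all events was 0.15 and 0.11. It was -0.13 in intestine and -0.04 in spleen, and lay between 0.07 and 0.24 in the remaining 5 tissues, with muscle the highest. In liver the members' C1:C2 deviation had a median of 0.53 and their level one of 0.53, against 0.18 and 0.31 over all events, while their mean inclusion junction stood at -0.06, against 0.27. Testis, by the rule, was the farthest out at -1.31.

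**Figure D4:**
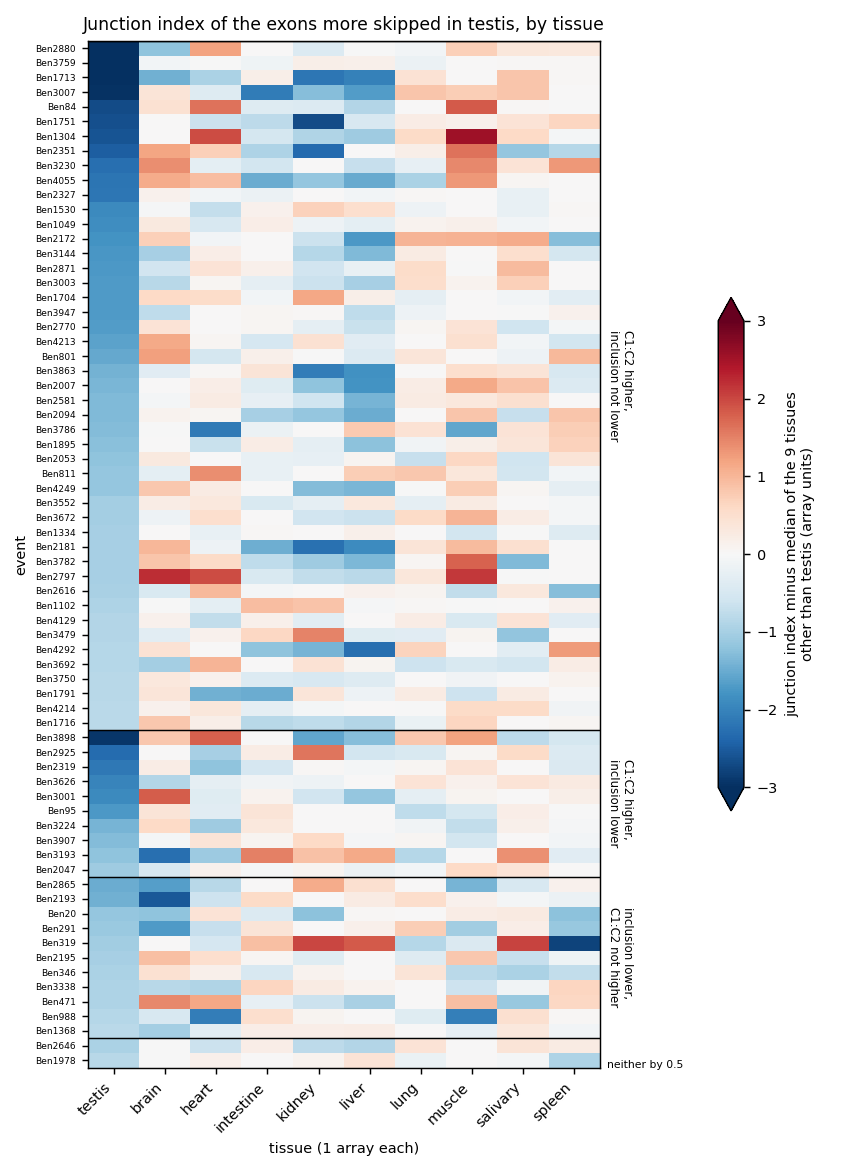
Junction index of each of the 70 members (rows, grouped by class and ordered by the testis value) in each tissue (columns, testis at the left), minus the median of the 9 tissues other than testis, in array units. Blue is a lower index and red a higher one, and colours saturate at 3 units. Testis is blue throughout because the rule chose it so; liver and kidney also hold blue cells in many of the upper rows, and the index was lowest in another tissue than testis in 26 rows.

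The INT probe took no part in the rule. Its deviation in testis had a median of 0.12 over the 70 members, against 0.01 over all events. It was higher by 1 unit or more in 3 members, 4.29% of them, against 4.32% of all events, and lower by as much in 1, or 1.43%, against 1.44%. The members thus did not stand apart from the background in either count. Under quantile normalization the median was -0.03. INT was highest in testis in 12 members (17.1%) and lowest in 6 (8.57%), against 12.2% and 10.3% of all events.

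Ben2195 had the highest INT deviation, 1.96. INT read 4.07 in testis there, against 1.05, 2.11 and 3.65 in the others, above them all. In Ben3786 INT read 2.88 in testis, against 0.777, 1.30 and 1.74, again with no overlap, and its C1:C2 junction read 5.31 in testis, against 3.03, 3.87 and 5.92. The lowest INT deviation was that of Ben3224, where INT read 0.247 in testis, against 0.315, 1.83 and 3.25. Ben2351 followed with 0.304 in testis, against 0.363, 1.18 and 2.76.

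For contrast, the rule turned round took 56 exons more included in testis, 5.38% of the same events. The level deviation had a median of 0.91 in the exons more skipped, against -0.04 in those more included. Level was higher by 1 unit or more in 34 (48.6%) and lower by as much in 1 (1.43%) of the 70, against 11 (19.6%) and 9 (16.1%) of the 56. The body index falls with level when A does not move, and the junction index does when only C1:C2 follows level. The rule itself can thus favour higher level among the 70 and lower level among the 56. How much of the difference in level this makes up was not tested. C1:C2 deviated by a median of 1.33 in the exons more skipped and -0.36 in those more included, and the mean inclusion junction by -0.19 and 0.68. For INT the medians were 0.12 and 0.05.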

How the data were processed

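The deposited table gives 21882 probe values per sample, treated as a score, compressed and never negative. How the authors transformed and normalized them is not given in the sources used here. All 10 columns were used. Arrays were centred on their medians and the mean median was added back. Deviations are testis minus the median of the other 9 tissues. No model was fitted, because each tissue has 1 sample; the number of arrays limits the precision. The members, lists and thresholds were chosen with earlier results of these data known. Events were named by rule: per class the 5 members with the lowest index deviation, the 3 nearest inside and the 3 nearest outside the threshold, the 2 highest and 2 lowest in INT, and the 3 with the widest index range elsewhere. Exceptions are stated. The planned count of members also low in other tissues is not given, since those comparisons share samples. Calling was run on simulated data, with shifts planted only where A and the inclusion junctions were bright. That run does not show how dim members are called. Alternatives covered scaling, comparator, filters, junctions and thresholds. Versions were Python 3.11.15, matplotlib 3.10.9, scipy 1.17.1, pandas 2.3.3 and numpy 2.4.6.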

Additional observations from a re-analysis of the deposited data

How the results depend on the processing

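No paired analysis was possible because there were no replicates to pair. The rule took 70 exons. Of 20 alternatives, the number moved by over 1.5 times under 5: 44 under quantile normalization, 36 with flanks above the minimum in all 10 tissues, 162 with no filter on flanks, 8 with both kinds of junction above the 95th percentile of INT, and 22 at thresholds of 1.6 and 0.8. Filters and thresholds change the number by construction; for quantile normalization the cause was not tested. Leaving each comparator tissue out in turn, it ranged from 64 to 70, and 61 to 64 of the 70 were kept. With the members held fixed, quantile normalization gave medians of 0.69 for C1:C2, 0.45 for level and -0.0274 for INT, and 17 members with inclusion junctions lower and C1:C2 not higher, 11 with neither step and 17 with level higher by 1 unit. Against the mean of the others the C1:C2 median was 1.08 and 4 members had neither step. At a class step of 0.3 units 20 members were switches and 0 had neither; at 1 unit 1 was a switch, 7 had inclusion junctions lower and C1:C2 not higher and 22 neither. The class and level counts under scaling were chosen after seeing the data. Over all 1041 events the median level deviation was 0.19, and -0.09 under quantile normalization. Low signal of the inclusion junctions is one limit, and the lack of replicates another.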
